A study of Homo sapiens with 6 samples.

Results

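Interferon-stimulated genes are a set of genes that cells transcribe at a higher rate after an interferon binds its receptor. The signal runs through Janus kinases to a complex that holds STAT2 and IRF9 and binds the interferon-stimulated response element in their promoters, and the proteins they encode block viruses at entry, at translation and at genome replication. Tumour cells can express such genes without added interferon. The 46 genes described here were taken by symbol from the 39323 genes of the deposited count table, and comprise 41 effectors and 5 transcription factors (IRF1, IRF2, IRF7, IRF9 and STAT2). All 46 were found, each in 1 row, and all 46 were among the 16869 genes that passed the filter on low counts.

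The cells were MDA-MB-231, a human triple-negative breast cancer line, grown in serum-containing medium and transfected with a lipid reagent. In 3 libraries (siSF3B6) the duplex was a small interfering RNA against SF3B6, a subunit of the SF3b complex that recognises the branch point of introns, and in 3 libraries (siNC) it was a non-targeting duplex. A single targeting duplex was used, so an effect of the SF3B6 knockdown and any other effect of that duplex cannot be told apart. SF3B6 itself had 86.4, 80.5 and 102 CPM (reads scaled to library size with TMM factors) in siNC replicates 1 to 3 and 22.5, 25.0 and 21.3 CPM with siSF3B6 (log2 fold change -1.96, SE 0.104, adjusted p = 1.43e-07).

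The libraries held 28504091 to 38546037 reads in genes. The siNC libraries differed among themselves: mitochondrial transcripts took 3.38% and 3.93% of reads in replicates 1 and 2 but 9.07% in replicate 3, against 10.6% to 11.8% in siSF3B6, and 30930 and 32041 genes had a read in siNC replicates 1 and 2 but 24579 in siNC replicate 3, against 24516 to 25566 in siSF3B6. In both measures siNC replicates 1 and 2 stood apart from the other 4 libraries, so that these differences run partly with the comparison. Their part in the results was not tested, and values against siNC replicate 3 alone are given where calls turn on it. VIM, CD44, AXL and MSN, which MDA-MB-231 cells express, had at least 509 CPM in every library, EGFR had at least 145 CPM, and the hormone receptors ESR1 and PGR had at most 0.353 CPM. In the marker list used here, SPARC was expected present but had 0.449 to 3.82 CPM. The keratin KRT8 was expected low or absent but had 1004 CPM or more. Of the 7 epithelial or luminal markers 5 were tested and 4 were higher with siSF3B6, where 20.8% of all genes tested were higher. These 4 were EPCAM (10.7 ± 0.711 to 22.8 ± 1.09 CPM, log2 fold change 1.09), ERBB3 (0.72), CDH1 (0.56) and GATA3 (0.50). In each of them all siSF3B6 libraries lay above all siNC libraries, as in 26.3% of all genes. The summed level of the 7, nearly all of it KRT8, was 1035 to 1082 CPM with siNC and 1060.2 to 1241 CPM with siSF3B6. Of 12 blood and immune cell markers, 7 were tested and 4 were higher in siSF3B6, where 20.8% of all genes tested were higher. These were HBB (log2 fold change 3.05), CD3D (1.28), PTPRC (1.04) and CD68 (0.71), and only in CD3D did the groups not overlap. The summed level of the 12 was 21.0 to 23.9 CPM with siNC and 23.7 to 33.3 CPM with siSF3B6. CD14 was the largest part in every library (11.3 to 14.6 CPM) and was not called (-0.09). PTPRC had at most 1.47 CPM and CD3E at most 0.199 CPM. HBB (6.52 CPM), LYZ (3.09 CPM) and SPARC (3.82 CPM) were each highest in siSF3B6 replicate 2. SPARC was called higher (log2 fold change 1.49), with groups that overlapped. CD68 did not stand out in that library, with 3.40 to 3.84 CPM in siSF3B6 and 1.42 to 3.51 CPM in siNC. The part of these epithelial and blood cell markers in the results was not tested.

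Most of the interferon-stimulated genes were higher after SF3B6 knockdown, but the sizes ranged from no detectable change to more than 7-fold. In the edgeR quasi-likelihood test 34 of 46 (73.9%) were higher at an adjusted p under 0.05, against 20.8% of all genes tested, and 3 (6.52%) were lower, against 20.0% of all genes. The remaining 9 did not pass the threshold. The median log2 fold change was 0.48, against 0.00 over all genes tested. Strongly raised, meaning called with a log2 fold change of at least 1, were 10 members (21.7%), against 2.26% of all genes: IFI44L, IFI27, IFI6, IRF9, XAF1, MX1, SAMD9, SAMD9L, IFITM1 and PARP9. The member just inside that bound was PARP9 (1.00) and the one just outside was SP100 (0.90). Another 9 called members had values from 0.50 to 0.90 and 15 had values from 0.27 to 0.50.

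**Figure D1:**
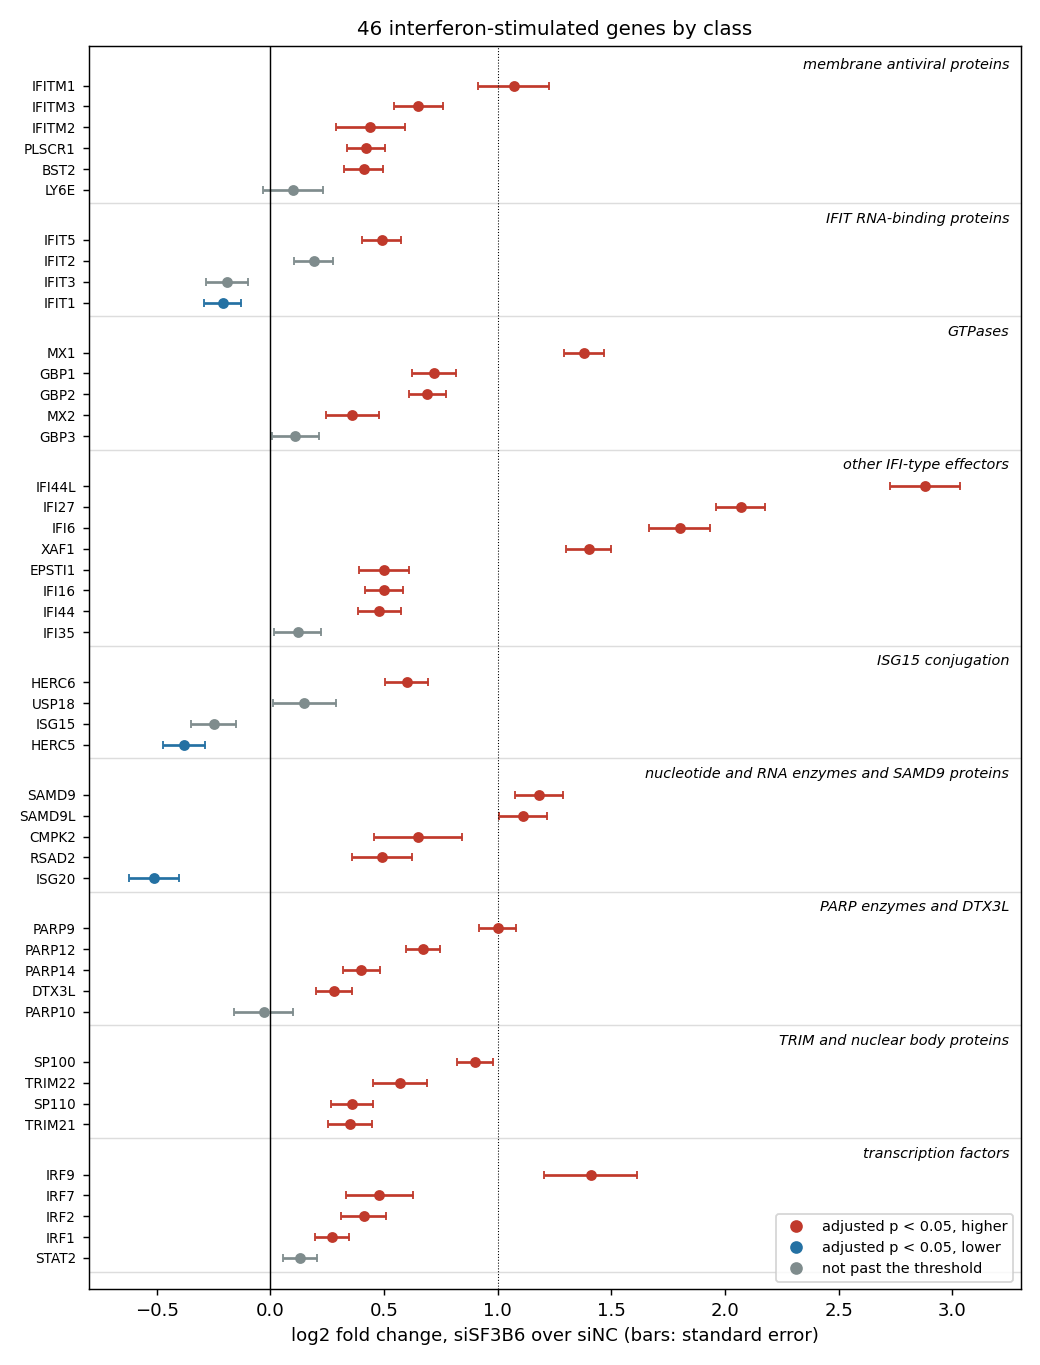
Log2 fold change of each of the 46 genes, siSF3B6 over siNC (x axis), with the standard error as a bar, grouped by class. Red points passed an adjusted p of 0.05 upward (34 genes), blue points downward (3 genes), and grey points did not pass it (9 genes). The 5 largest values are those of IFI44L, IFI27, IFI6, IRF9 and XAF1, and the dotted line marks a log2 fold change of 1.

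For most members the libraries also separated fully. All 3 siSF3B6 libraries lay above all 3 siNC libraries for 34 members (73.9%), against 26.3% of all genes, and below them for 5 (10.9%), against 25.9% of all genes. Of the 34 members called higher, 32 had groups that did not overlap, and the exceptions were IFITM2 and IRF7. IFIT2 and STAT2 had every siSF3B6 library above siNC without passing the test, and IFIT3 and ISG15 had every one below without passing it. With 3 libraries against 3 an exact two-sided permutation test of a single gene cannot go below p = 0.1, so the calls rest on the model fitted over all genes. The design text calls the replicates biological but no label names separate cultures, and the p-values therefore describe only how far these 6 libraries spread. In bulk RNA a smaller share of expressing cells and less RNA in each cell cannot be told apart.

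The promoters of 8 members are shown because each holds the core letters of the element bound by the interferon-activated complex while the genes went different ways. RefSeq promoter windows on GRCh38.p14 (250 bases before a transcription start to 50 after it) were at hand for 36 of the 46 members. They were searched on both strands for the core of the interferon-stimulated response element, written as GAAA, any 2 bases, GAAA, with overlapping matches counted. A match was found for 25 of these 36 members (69.4%) and for 4.38% of the 27305 genes with a window. The stretches below are the 180 bases before the start, 5′ to 3′ on the strand of the gene, with every match in capitals. The first 4 belong to strongly raised members:
IFI44L, chr1:78620268-78620447, plus strand: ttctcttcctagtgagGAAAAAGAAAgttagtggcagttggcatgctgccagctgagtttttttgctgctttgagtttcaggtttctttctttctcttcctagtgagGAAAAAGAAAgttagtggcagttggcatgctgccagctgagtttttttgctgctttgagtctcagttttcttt
IFI27, chr14:94110556-94110735, plus strand: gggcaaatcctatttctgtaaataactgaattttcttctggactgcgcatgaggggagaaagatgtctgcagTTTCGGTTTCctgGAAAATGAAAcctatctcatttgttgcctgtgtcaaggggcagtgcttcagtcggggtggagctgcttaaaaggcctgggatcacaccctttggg
IFI6, chr1:27672193-27672372, minus strand: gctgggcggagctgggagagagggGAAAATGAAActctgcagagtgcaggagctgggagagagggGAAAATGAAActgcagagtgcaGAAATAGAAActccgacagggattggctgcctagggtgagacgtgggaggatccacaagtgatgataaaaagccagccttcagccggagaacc
IFITM1, chr11:313860-314039, plus strand: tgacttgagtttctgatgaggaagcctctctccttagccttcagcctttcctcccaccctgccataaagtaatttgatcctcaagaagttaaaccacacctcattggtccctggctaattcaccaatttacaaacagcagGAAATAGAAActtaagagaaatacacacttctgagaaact

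The other stretches belong to ISG15, IFIT1, IFIT3 and HERC5, none of which was higher in siSF3B6, and are printed in the same way:
ISG15, chr1:1013317-1013496, plus strand: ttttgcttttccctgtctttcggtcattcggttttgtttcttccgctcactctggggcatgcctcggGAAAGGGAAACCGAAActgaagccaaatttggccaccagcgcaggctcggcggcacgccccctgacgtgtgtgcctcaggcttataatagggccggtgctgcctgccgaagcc
IFIT1, chr10:89392443-89392622, plus strand: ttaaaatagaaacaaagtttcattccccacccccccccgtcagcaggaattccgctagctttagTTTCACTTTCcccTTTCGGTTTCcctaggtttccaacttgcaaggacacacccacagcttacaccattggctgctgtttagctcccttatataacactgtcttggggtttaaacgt
IFIT3, chr10:89327817-89327996, plus strand: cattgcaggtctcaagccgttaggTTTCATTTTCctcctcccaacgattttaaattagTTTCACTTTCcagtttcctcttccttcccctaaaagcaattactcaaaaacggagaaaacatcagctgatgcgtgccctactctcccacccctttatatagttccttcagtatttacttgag
HERC5, chr4:88456939-88457118, plus strand: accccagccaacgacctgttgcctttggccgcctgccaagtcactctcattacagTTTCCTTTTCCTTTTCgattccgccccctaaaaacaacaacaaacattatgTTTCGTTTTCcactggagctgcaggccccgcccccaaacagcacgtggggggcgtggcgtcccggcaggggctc

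In these stretches IFI44L had 2 matches, IFI27 had 2, IFI6 had 3 and IFITM1 had 1, next to a second match that ran across its start. ISG15 and IFIT1 also had 2 each, as had IFIT3, and HERC5 had 3. The matches of ISG15 overlapped each other, as did a pair of those of HERC5. By size of change, a match was found for 7 of the 10 strongly raised members, 4 of 7 with a window among those at 0.50 to 0.90, and 8 of 11 among the smaller rises. It was found for 3 of the 5 members with a window that did not pass the threshold and for all 3 members that fell. The core of the gamma-activated site, TTCNNNGAA, the same on both strands, was found for 12 of the 36 members and for 9.38% of all genes. Among the 10 strongly raised members it was found for 4 (IFI27, IFITM1, MX1 and IRF9). It was found for 1 of 7 with a window at 0.50 to 0.90 and for 5 of 11 among the smaller rises. Of the 5 members with a window that did not pass the threshold 2 had it, and of the 3 that fell 0, too few to compare. In IFI27 the gamma-activated site core overlapped both response element matches. A match is only a run of letters and is not evidence of binding.

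The IFI-type effectors held the largest rises: 7 of 8 were higher, 4 of them strongly, and the median log2 fold change was 0.95. IFI44L, an interferon-induced gene of the IFI44 family, had 3.78, 2.25 and 2.74 CPM in the siNC libraries and 22.3, 19.7 and 22.7 CPM with siSF3B6. That is 68 to 118 reads per siNC library against 654 to 729 reads. Every siSF3B6 library was thus more than 5 times above the highest siNC library (log2 fold change 2.88, SE 0.152, adjusted p = 1.43e-07). IFI27, a small hydrophobic protein of mitochondria and the nuclear envelope, had 56.2, 53.0 and 61.2 CPM with siNC and 258, 259.6 and 198 CPM with siSF3B6 (2.07, SE 0.108). Its paralogue IFI6, a mitochondrial and endoplasmic reticulum protein that restrains apoptosis, had 20.2, 20.8 and 15.4 CPM with siNC and 74.2, 68.3 and 53.8 CPM with siSF3B6 (1.80, SE 0.133). In both, siSF3B6 replicate 3 was the lowest of its group and still more than 2 times above every siNC library. XAF1, which antagonises the caspase inhibitor XIAP, had 10.8, 11.9 and 12.4 CPM with siNC and 31.7, 28.1 and 33.1 CPM with siSF3B6 (1.40, SE 0.0994), and 38.3% of its exonic bases are overlapped by the antisense gene PRAL.

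IFI44, which lies 3.65 kb from IFI44L on chromosome 1, rose far less, from 49.2 ± 1.24 to 68.7 ± 8.53 CPM (SD, n = 3 per group, log2 fold change 0.48, adjusted p = 0.00118). IFI16, a nuclear sensor of DNA, went from 128 ± 1.44 to 181 ± 18.4 CPM (0.50, adjusted p = 0.000472). EPSTI1, an interferon-induced gene named for its expression in breast epithelium next to stroma, had a log2 fold change of 0.50. IFI35, which binds the transcription regulator NMI, did not pass the threshold. It had 45.4, 49.0 and 45.8 CPM with siNC and 55.6, 54.5 and 42.0 CPM with siSF3B6 (0.12, SE 0.104, adjusted p = 0.391), with siSF3B6 replicates 1 and 2 above siNC and replicate 3 below it. Without siSF3B6 replicate 3 it passed at 0.23 (adjusted p = 0.025), and after correction for GC and length at 0.31 (adjusted p = 0.00112).

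**Figure D2:**
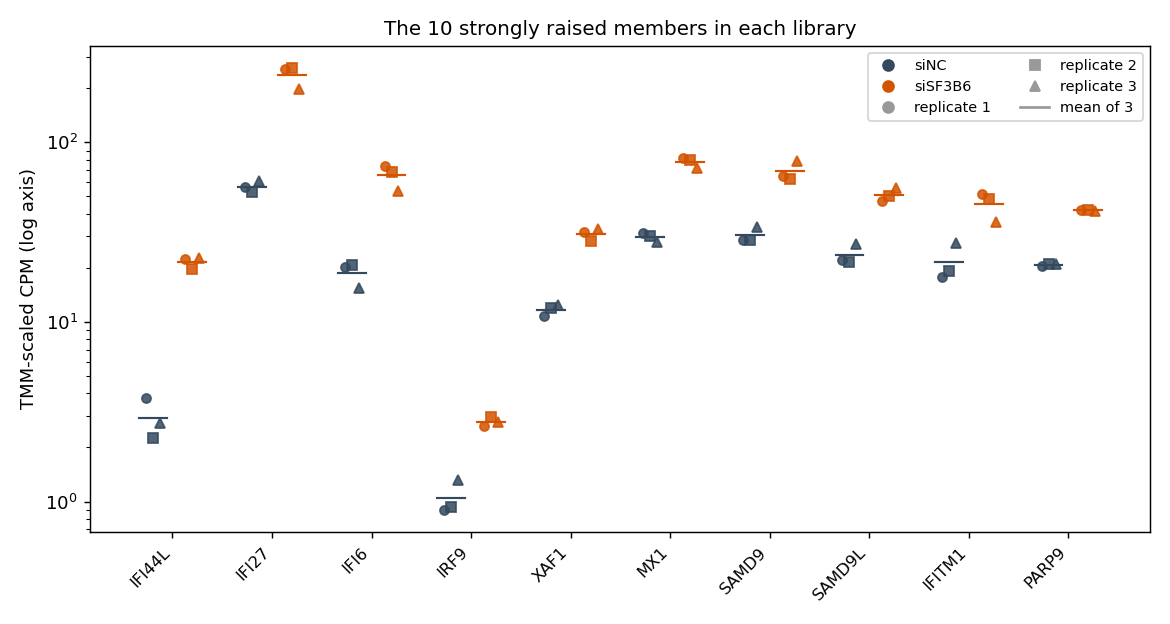
TMM-scaled CPM (log axis) of the 10 strongly raised genes in each of the 6 libraries. Dark points are siNC and orange points siSF3B6, the shape gives the replicate number and the line the mean of 3 libraries. For all 10 genes every siSF3B6 library lies above every siNC library, with IFITM1 the closest (27.4 CPM in siNC replicate 3 against 36.1 CPM with siSF3B6 replicate 3).

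Among the GTPases, which assemble on viral nucleocapsids (MX proteins) or on pathogen membranes (guanylate-binding proteins), 4 of 5 were higher and none was lower (median 0.69). MX1 had 31.2, 30.2 and 27.9 CPM with siNC and 81.5, 80.0 and 71.7 CPM with siSF3B6 (log2 fold change 1.38, SE 0.0868, adjusted p = 5.27e-07), with no overlap. Its neighbour MX2, 10.9 kb away on chromosome 21, went from 7.43 ± 0.61 to 9.56 ± 0.727 CPM (0.36, adjusted p = 0.0236). The MX2 call was lost when the library numbered 1 of siNC (0.29, adjusted p = 0.115) or of siSF3B6 (0.31, adjusted p = 0.103) was left out, and against siNC replicate 3 alone (0.30, adjusted p = 0.259). GBP1 (0.72, SE 0.0964) and GBP2 (0.69, SE 0.0809) rose by similar amounts, from 62.6 ± 3.43 to 103 ± 13.5 CPM and from 65.4 ± 0.435 to 105 ± 8.32 CPM. GBP3, 29.4 kb from GBP1, did not pass the threshold, with 76.0, 70.6 and 79.8 CPM with siNC and 72.1, 76.2 and 95.4 CPM with siSF3B6 (0.11, SE 0.103, adjusted p = 0.441). Its groups overlapped, and the excess lay in siSF3B6 replicate 3 alone. Of the 50-base words of GBP1, 10.9% also occur in the pseudogene GBP1P1. Of those of GBP2, 15.8% occur in GBP7, which overlaps it on the same strand. Reads in such stretches could be assigned to either gene.

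Of the 6 membrane antiviral proteins, 5 were higher and none was lower (median 0.43). The IFITM proteins, which hinder the fusion of viral with cellular membranes, were all called higher. IFITM1 had 17.8, 19.2 and 27.4 CPM with siNC and 51.3, 48.3 and 36.1 CPM with siSF3B6 (log2 fold change 1.07, SE 0.157, adjusted p = 0.00016). With scaling by library size alone IFITM1 had 0.97, below the bound for strongly raised. IFITM3 went from 323 ± 51.1 to 505 ± 37.4 CPM (0.65, adjusted p = 0.000416) and IFITM2 from 66.4 ± 19.0 to 90.1 ± 9.38 CPM (0.44, adjusted p = 0.032). In all 3, siNC replicate 3 was the highest siNC library and siSF3B6 replicate 3 the lowest siSF3B6 library, so the gap was narrowest between the libraries numbered 3. Against siNC replicate 3 alone the values fell to 0.71 for IFITM1 (adjusted p = 0.0244), 0.39 for IFITM3 (adjusted p = 0.0487) and 0.02 for IFITM2 (adjusted p = 0.948), all against 3 siSF3B6 libraries. The IFITM2 call was also lost in DESeq2 (adjusted p = 0.164) and when any 1 of the libraries numbered 1 or 2 was left out: 0.31 and 0.34 without siNC 1 or 2 (adjusted p = 0.143 and 0.134), 0.41 and 0.39 without siSF3B6 1 or 2 (adjusted p = 0.0836 and 0.0803). Within the libraries numbered 1 and 2 they were 1.43, 0.85 and 0.79. The family shares sequence: 39.0% of the 50-base words of IFITM1 occur in transcripts of IFITM2, which overlaps it on the same strand, and 14.4% of those of IFITM3 do, so the counts of the 3 genes are uncertain.

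BST2 (tetherin), which holds budding virions at the cell surface, rose from 240.5 ± 22.6 to 319 ± 16.3 CPM (log2 fold change 0.41, adjusted p = 0.00226). PLSCR1, a phospholipid scramblase, rose from 27.8 ± 1.35 to 37.2 ± 1.27 CPM (0.42, adjusted p = 0.00128). LY6E, a lipid-anchored surface protein, had 396, 386 and 289 CPM with siNC and 422, 413 and 309.7 CPM with siSF3B6 (0.10, SE 0.132, adjusted p = 0.588). In both groups replicate 3 was the lowest, and the groups overlapped. The LY6E value was -0.03 without siNC replicate 3, -0.01 with scaling by library size alone, and 0.41 (adjusted p = 0.00104) after correction for GC and length.

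The IFIT proteins, which bind viral RNA and block its translation, did not move together, although their genes lie side by side on chromosome 10. IFIT5 alone was higher, with 43.4, 42.1 and 46.1 CPM with siNC and 62.8, 56.3 and 65.9 CPM with siSF3B6 (log2 fold change 0.49, SE 0.0861, adjusted p = 0.000594). IFIT2 had 169.6, 165 and 174 CPM with siNC and 185, 179 and 215 CPM with siSF3B6 (0.19, SE 0.0845, adjusted p = 0.0893), above siNC in every library. IFIT3 had 326, 324 and 397 CPM with siNC and 294, 304 and 317 CPM with siSF3B6 (-0.19, SE 0.0918, adjusted p = 0.108), below siNC in every library. IFIT1 had 138, 139 and 156 CPM with siNC and 120.4, 121 and 132 CPM with siSF3B6 (-0.21, SE 0.0809, adjusted p = 0.0497), again with no overlap. The IFIT1 call sat at the threshold: leaving out any 1 of the libraries other than siSF3B6 replicate 3 ended it (adjusted p from 0.079 to 0.17). Against siNC replicate 3 alone the IFIT1 value was -0.34. Some alternatives took IFIT3 past the threshold downward. Among them were the correction for GC and length (-0.25, adjusted p = 0.00732) and scaling by library size alone (-0.29, adjusted p = 0.0142). Within the libraries numbered 1 and 2, IFIT3 passed downward (-0.12, adjusted p = 0.00644) and IFIT2 upward (0.12, adjusted p = 0.00636). Against siNC replicate 3 alone IFIT3 had -0.39.

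The ISG15 system attaches ISG15, a protein related to ubiquitin, to other proteins. Of its 4 members 1 was higher and 1 was lower (median -0.05), against 20.8% and 20.0% of all genes. So few genes show no more than their own values. ISG15 itself had 344, 338 and 314 CPM with siNC and 299, 305 and 234 CPM with siSF3B6 (log2 fold change -0.25, SE 0.10, adjusted p = 0.0605). The siSF3B6 libraries were all lower, replicate 3 most, but the test was missed in the fit of all 6 libraries. ISG15 was called lower in 9 of the 20 alternatives, among them scaling by library size alone (-0.36, adjusted p = 0.0114), the libraries numbered 1 and 2 (-0.17, adjusted p = 5.48e-05), limma-voom, both other filters on low counts and the replicate block. It also passed when siNC replicate 3 (-0.29, adjusted p = 0.0369) or siSF3B6 replicate 2 (-0.32, adjusted p = 0.0441) was left out and with DESeq2 (-0.25, adjusted p = 0.0398), while the correction for GC and length gave 0.02 (adjusted p = 0.769). HERC5, the main human ligase of ISG15, fell from 73.5 ± 6.65 to 56.5 ± 4.16 CPM (-0.38, adjusted p = 0.00449), a call lost against siNC replicate 3 alone (-0.23, adjusted p = 0.255). HERC6, next to HERC5 on chromosome 4 and its close relative, went the other way, with 32.8, 32.5 and 38.6 CPM with siNC and 53.0, 48.2 and 56.2 CPM with siSF3B6 (0.60, SE 0.0952, adjusted p = 0.000297). USP18, which removes ISG15 from proteins and damps interferon receptor signalling, had 4.60 ± 0.591 CPM with siNC and 5.10 ± 0.294 CPM with siSF3B6 (0.15, adjusted p = 0.416), and 23.0% of its 50-base words are shared with USP41.

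**Figure D3:**
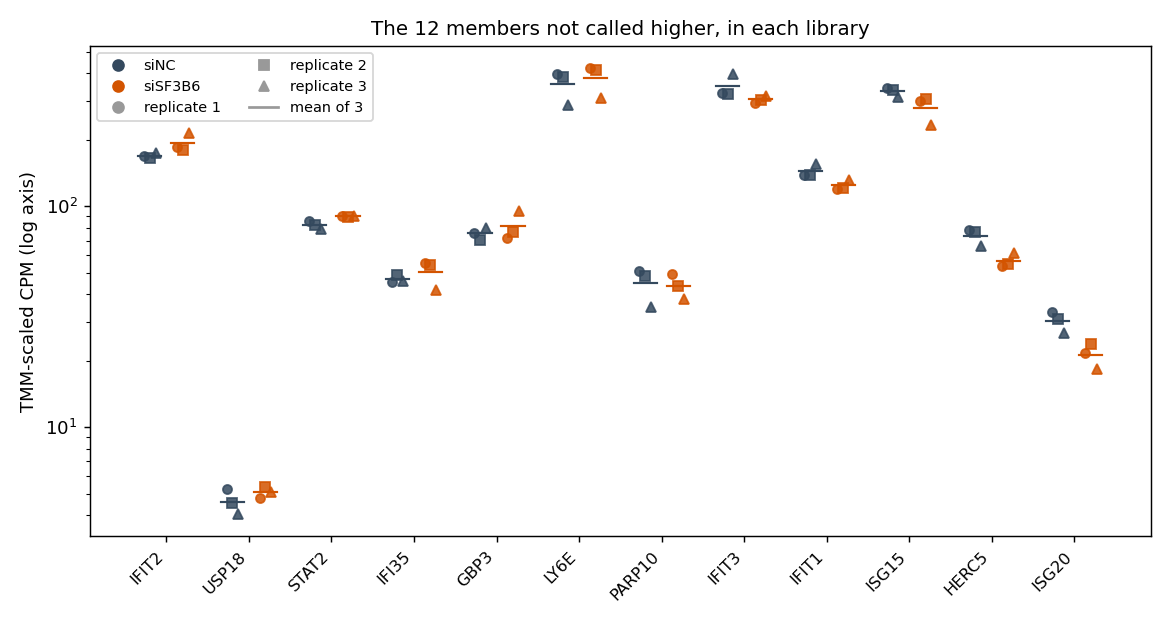
TMM-scaled CPM (log axis) of the 12 genes that were not called higher, in each of the 6 libraries, from the highest to the lowest log2 fold change. Dark points are siNC and orange points siSF3B6, the shape gives the replicate number and the line the mean of 3 libraries. LY6E, PARP10, IFI35, GBP3 and USP18 overlap between groups, and IFIT3, IFIT1, ISG15, HERC5 and ISG20 have every siSF3B6 library below every siNC library.

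Among the enzymes that act on nucleotides or RNA and the SAMD9 proteins, 4 of 5 were higher and 1 was lower (median 0.65). SAMD9 and SAMD9L, adjacent genes on chromosome 7 whose proteins restrict poxviruses and restrain growth, rose by almost the same amount. SAMD9 had 28.7, 28.6 and 33.8 CPM with siNC and 65.0, 62.6 and 79.1 CPM with siSF3B6 (log2 fold change 1.18, SE 0.106, adjusted p = 4.78e-06). SAMD9L had 22.2, 21.7 and 27.3 CPM with siNC and 47.1, 50.1 and 55.9 CPM with siSF3B6 (1.11, SE 0.105, adjusted p = 7.98e-06). After correction for GC and length they were 0.96 and 0.91, both called, so under that fit neither reached the bound for strongly raised. CMPK2, a mitochondrial nucleotide kinase, and RSAD2 (viperin), which makes a chain-terminating nucleotide, are divergent neighbours and rose by 0.65 (adjusted p = 0.0157) and 0.49 (adjusted p = 0.01) from 1.62 ± 0.284 and 4.04 ± 0.286 CPM. The CMPK2 call rests on 43 to 89 reads per library and was lost when siNC replicate 1 (0.54, adjusted p = 0.0759) or 2 (0.62, adjusted p = 0.053) or siSF3B6 replicate 1 (0.57, adjusted p = 0.0655) was left out and against siNC replicate 3 alone (0.39, adjusted p = 0.345). ISG20, an RNA exonuclease, fell, with 33.1, 30.9 and 26.8 CPM with siNC and 21.6, 23.7 and 18.4 CPM with siSF3B6 (-0.51, SE 0.11, adjusted p = 0.00245). Its groups did not overlap, and against siNC replicate 3 alone it had -0.35 (adjusted p = 0.157).

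Of the ADP-ribosyltransferases and their partner DTX3L, 4 of 5 were higher and none was lower (median 0.40). PARP9, which forms a ubiquitin ligase with DTX3L, was the most even across libraries: 20.5, 21.0 and 21.0 CPM with siNC and 42.1, 41.9 and 41.6 CPM with siSF3B6 (log2 fold change 1.00, SE 0.0803, adjusted p = 2.22e-06). The PARP9 value was 0.89 after correction for GC and length and 0.90 with scaling by library size alone, both below the bound for strongly raised. PARP12 went from 67.8 ± 2.66 to 108 ± 2.54 CPM (0.67) and PARP14 from 58.0 ± 1.65 to 76.4 ± 5.46 CPM (0.40). DTX3L, which shares a divergent promoter region with PARP9 on chromosome 3, went from 47.5 ± 2.34 to 57.6 ± 1.07 CPM (0.28, adjusted p = 0.0118). Its call was lost without siNC replicate 2 (0.24, adjusted p = 0.0802) and against siNC replicate 3 alone (0.21, adjusted p = 0.292). PARP10, which adds single ADP-ribose units, had 50.8, 48.5 and 35.0 CPM with siNC and 49.5, 43.7 and 38.0 CPM with siSF3B6 (-0.03, SE 0.131, adjusted p = 0.859). Replicate 3 was lowest in both groups, and its value was 0.32 (adjusted p = 0.00394) after correction for GC and length and 0.31 (adjusted p = 0.218) against siNC replicate 3 alone.

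The TRIM and nuclear body proteins were all higher (4 of 4, median 0.46). SP100, a scaffold of promyelocytic leukaemia nuclear bodies, had 60.7, 62.9 and 62.6 CPM with siNC and 111, 114 and 124 CPM with siSF3B6 (log2 fold change 0.90, SE 0.0774, adjusted p = 3.6e-06). Of its 50-base words, 12.9% also occur in HMGB1P3. TRIM21, a cytosolic antibody receptor and ubiquitin ligase, had 23.6, 23.4 and 21.4 CPM with siNC and 31.6, 29.8 and 25.5 CPM with siSF3B6 (0.35, SE 0.0975, adjusted p = 0.0119). Its call was lost without siSF3B6 replicate 1 (0.28, adjusted p = 0.0705). TRIM22, a relative of TRIM21, went from 7.72 ± 0.695 to 11.4 ± 1.22 CPM (0.57). SP110, a relative of SP100, went from 20.5 ± 0.259 to 26.4 ± 2.61 CPM (0.36), and 20.9% of its exonic bases are overlapped on the opposite strand by SP140 and another gene.

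Of the 5 transcription factors 4 were higher and none was lower (median 0.41), IRF9 by most, and STAT2 did not pass the threshold. The count of higher factors was 2 with scaling by library size alone or without siSF3B6 replicate 1 or 2. It was also 2 on filtered FPKM, where IRF9 fell below the filter and was not tested, and 1 on unfiltered log2(FPKM + 1). Against siNC replicate 3 alone the values were 1.08 for IRF9, 0.57 for IRF7, 0.33 for IRF1, 0.24 for IRF2 and 0.17 for STAT2. IRF9, the DNA-binding subunit of the complex that interferon activates, had 0.898, 0.928 and 1.31 CPM with siNC and 2.62, 2.95 and 2.78 CPM with siSF3B6 (log2 fold change 1.41, SE 0.205, adjusted p = 0.000156). That is 28 to 44 reads against 77 to 109 reads. All 50-base words of its longest transcript also occur in the read-through gene AL136295.5, which covers 48.4% of its exonic bases on the same strand, so its counts are uncertain. STAT2, its partner, had 85.7, 82.5 and 79.1 CPM with siNC and 90.2, 89.9 and 90.1 CPM with siSF3B6 (0.13, SE 0.0744, adjusted p = 0.188), with no overlap but no call. IRF1, an activator that interferon-gamma induces strongly, rose from 119 ± 5.6 to 143 ± 4.41 CPM (0.27, adjusted p = 0.012), and its counter-player IRF2 from 19.5 ± 2.26 to 25.8 ± 0.95 CPM (0.41, adjusted p = 0.00488). IRF7, which amplifies interferon production, had 20.3, 19.4 and 18.0 CPM with siNC and 30.4, 31.0 and 19.0 CPM with siSF3B6 (0.48, SE 0.149, adjusted p = 0.0196). Its rise lay in siSF3B6 replicates 1 and 2: without replicate 1 it was 0.38 (adjusted p = 0.0817), without replicate 2 it was 0.36 (adjusted p = 0.0785), and after correction for GC and length it was 0.83 (adjusted p = 2.87e-05). The IRF1 call was lost without siSF3B6 replicate 1 (0.26, adjusted p = 0.0545) or 2 (0.25, adjusted p = 0.0544), and 22.0% of its exonic bases are overlapped on the opposite strand.

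Per gene length, the members differed widely in the control cells, and the most abundant ones were not the ones that rose most. In siNC the mean FPKM (fragments per kilobase of transcript, scaled to sequencing depth) was 328 ± 13.0 for ISG15, 187 ± 15.8 for BST2, 116 ± 18.3 for LY6E and 97.2 ± 16.5 for IFITM3, and these 4 made up 60.7% to 64.8% of the summed FPKM of the 46 members. The SD ranges of LY6E and IFITM3 overlapped, so those neighbours in the order do not differ beyond their spread. At the other end were IFI44L (0.213 ± 0.0611), IRF9 (0.25 ± 0.0608) and CMPK2 (0.317 ± 0.0569), again within their spread of each other. The strongly raised members had 0.213 to 17.2 FPKM in siNC (median 2.42) and the 9 members that did not pass the threshold 2.12 to 328 FPKM (median 20.4). The siNC level enters both the fold change and this comparison. In siSF3B6, IFI6 reached 57.7 ± 9.3 FPKM and IFI27 47.5 ± 7.05 FPKM, which moved IFI6 from rank 12 to rank 5 of the 46 and IFI27 from rank 15 to rank 8. The summed FPKM of all 46 was 1162, 1141 and 1141 in siNC and 1399, 1398 and 1239 in siSF3B6, and the share of ISG15 in it went from 27.5% to 29.2% in siNC to 17.9% to 20.8% in siSF3B6.

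**Figure D4:**
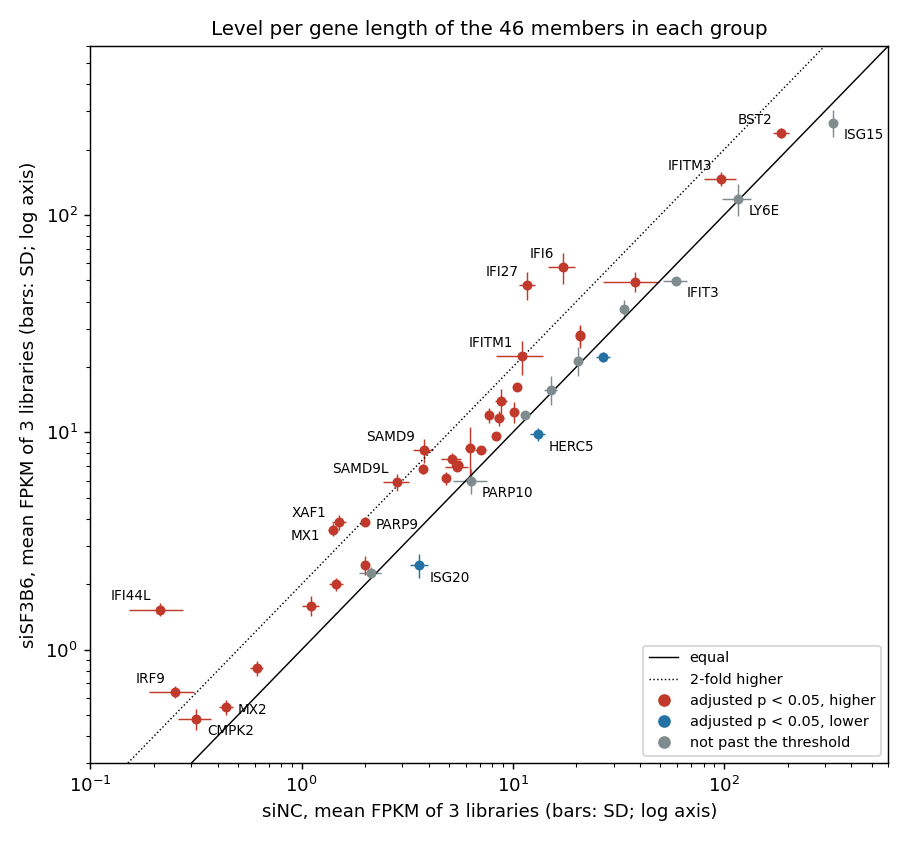
Mean FPKM of each of the 46 genes in siNC (x axis) and siSF3B6 (y axis), both log axes, with the SD of 3 libraries as bars. The solid line marks equal levels and the dotted line a 2-fold rise. IFI27 and IFI6 leave the line of equal levels at 11.7 and 17.2 FPKM in siNC, while ISG15, the most abundant, lies below it.

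Neighbouring members on a chromosome often differed in size and at times in direction. There were 14 pairs of adjacent members less than 150 kb apart, and in 9 of them both genes were higher. Several genes are in 2 pairs. Of all 46 members 73.9% were higher, and the share over other gene pairs was not counted. In 2 pairs the calls were opposite: HERC6 (0.60) with HERC5 (-0.38), and IFIT1 (-0.21) with IFIT5 (0.49). IFI44L (2.88) and IFI44 (0.48), MX1 (1.38) and MX2 (0.36), and PARP9 (1.00) and DTX3L (0.28) had both genes higher by unequal amounts. SAMD9 (1.18) and SAMD9L (1.11), and GBP1 (0.72) and GBP2 (0.69), were nearly equal. These differences between genes were not tested. The strongly raised members are spread over the genome, with IFI44L at 78619922 to 78646145 and IFI6 at 27666061 to 27672218 on chromosome 1, IFI27 at 94104836 to 94116698 and IRF9 at 24161053 to 24166565 on chromosome 14, and XAF1 at 6755447 to 6775647 on chromosome 17. MX1 lies at 41420304 to 41459214 on chromosome 21, SAMD9 and SAMD9L between 93099513 and 93148369 on chromosome 7, IFITM1 at 313506 to 315272 on chromosome 11, and PARP9 at 122527924 to 122564577 on chromosome 3 (GRCh38, GENCODE release 29).

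The other genes of the pathway were read from lists of sensors, ligands, receptors and regulators. Of 12 sensors and effectors of double-stranded RNA, 11 were tested, 6 rose and 1 fell (median 0.76), against 20.8% and 20.0% of all genes. The largest rises were those of OAS1 (1.70) and OAS3 (0.98), which make the second messenger that activates RNase L, and of the endosomal receptor TLR3 (1.29), while OASL, a catalytically inactive relative, fell by 0.87 on the log2 scale. Interferon ligands were close to absent. The 5 ligand genes with a row (IFNB1, IFNG, IFNL1, IFNL2 and IFNL3) had 1 to 6 reads in sum per library and none was tested. No row was matched to the other ligands looked up, IFNA1, IFNA2, IFNE and IFNK, so their levels are not known here. IFNB1 had 1 read in siNC replicate 2 and 0 in the other 5 libraries, where a count of 0 allows up to 3 reads, or 0.0811 to 0.102 CPM. IFNL1 had 1, 1 and 1 reads in siNC and 4, 5 and 2 reads in siSF3B6, too few to test. These limits cover counting error only.

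Of 9 interferon receptors and their kinases, 3 rose and none fell (median 0.33), where 20.8% of all genes were higher and 20.0% lower, and so few genes show no more than their own values: IFNGR1 (0.57), IFNAR1 (0.45) and IFNGR2 (0.43). Among other STAT and IRF factors, STAT3, a mediator of cytokine signals, rose from 117 ± 0.951 to 164 ± 5.95 CPM (0.48, adjusted p = 0.000197, n = 3 per group). IRF3, which switches on interferon genes, fell, with 133, 135 and 107 CPM with siNC and 83.3, 86.2 and 75.0 CPM with siSF3B6 (-0.62, SE 0.0977, adjusted p = 0.00029). IRF5, an activator of inflammatory genes, fell by 0.68 on the log2 scale (adjusted p = 0.0116). Of 6 negative regulators 2 rose, PTPN6 (0.55) and PIAS1 (0.42), and none fell, a share likewise read against 20.8% and 20.0% of all genes, with SOCS1 at -0.41 (adjusted p = 0.053).

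The strongly raised members kept their calls against the control library that did not stand apart, and many weaker members did not. Against siNC replicate 3 alone, the control library nearest to siSF3B6 in its mitochondrial share, 20 of 46 members (43.5%) were higher, against 6.60% of all genes, and 1 (IFIT3) was lower, against 7.24% of all genes. All 34 members called higher in the fit of 6 libraries kept a positive value there, and all 10 strongly raised members kept their call. Of these, MX1, IFI27, IFI6, IFI44L, XAF1, SAMD9 and IRF9 kept a log2 fold change of at least 1, and the lowest was IFITM1 (0.71). The calls of 14 members were lost. In TRIM21 (0.42 against 0.35 in the fit of 6 libraries), IRF1 (0.33 against 0.27) and IRF7 (0.57 against 0.48) the value was larger there, and in SP110 (0.35 against 0.36) it was nearly equal. It was smaller in IFIT5 (0.41), HERC6 (0.43), PARP14 (0.35), PLSCR1 (0.33), RSAD2 (0.37), MX2 (0.30) and DTX3L (0.21). It fell by more than 1.5 times in IFITM2 (0.02), IRF2 (0.24 against 0.41) and CMPK2 (0.39 against 0.65). A lone control leaves fewer libraries, and fewer genes pass overall. Scaling by library size alone ended the calls of IFITM2, MX2, DTX3L, TRIM21, IRF1 and IRF7. Replicate 3 stood at an end of its group for more members than the others did. It was the highest or lowest siSF3B6 library for 38 of 46 members, against 27 for replicate 1 and 27 for replicate 2. In siNC it was so for 36, against 30 for replicate 1 and 26 for replicate 2. In a group of 3 libraries most are at an end by construction, and the share over all genes was not counted.

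**Figure D5:**
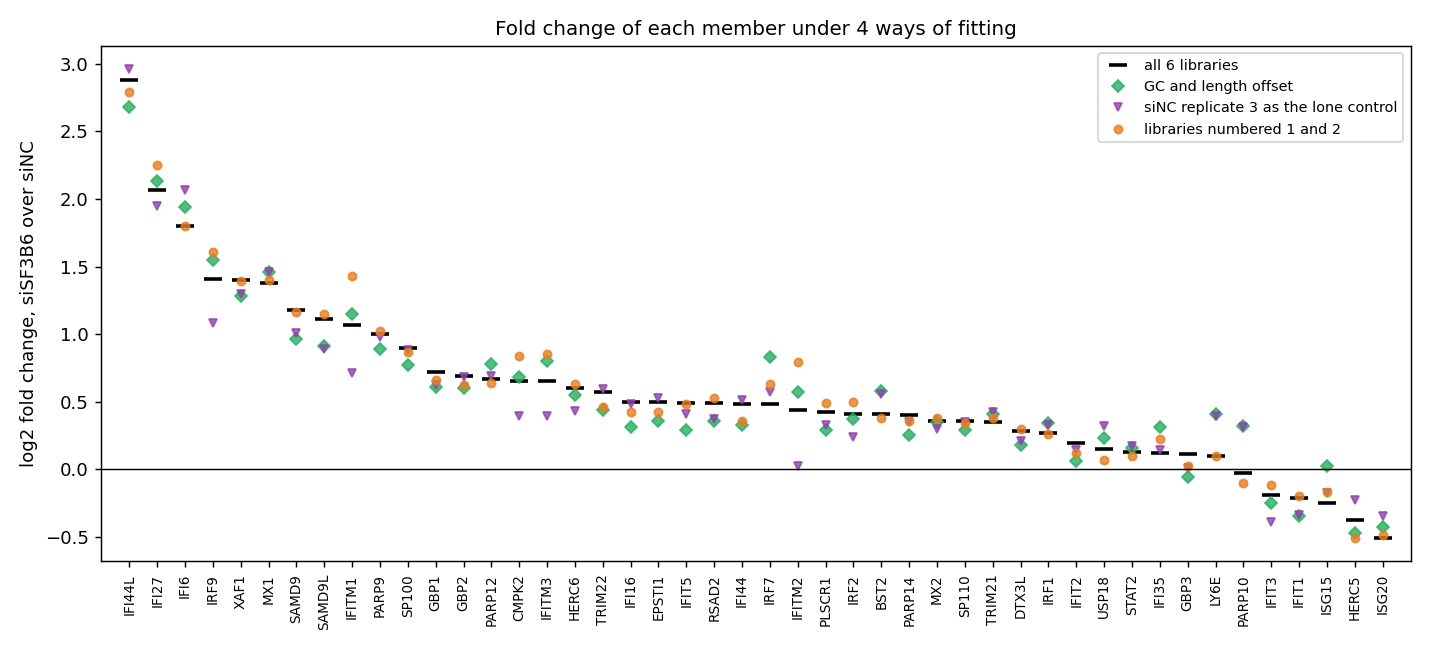
Log2 fold change of each of the 46 genes (x axis, from the highest to the lowest) in the fit of all 6 libraries (black bars), after correction for GC and length (green), against siNC replicate 3 alone (purple) and within the libraries numbered 1 and 2 (orange). The 10 genes at the left stay at or above 0.71 in all 4, IFITM2 falls to 0.02 against siNC replicate 3 alone, and PARP10 goes from -0.03 to 0.32 after the correction.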

How the data were processed

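Polyadenylated RNA was sequenced in 6 MDA-MB-231 libraries (3 siSF3B6, 3 siNC) from a directional kit, per the labels' protocols. The authors deposited whole-number read counts for each gene and, in another table, FPKM values with 2 decimals. The submitters' processing notes name HISAT2, DESeq2 and hg38. Which counter and annotation were used, and whether strand was, is not given in the sources used here: overlapping and antisense genes can therefore share reads. Titles gave each library's group and number, since the cell line field counts upward from MDA-MB-231 to other numbers across samples.

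Counts of all 39323 genes entered edgeR 4.0.16 (R 4.3.3): filterByExpr, TMM factors, the quasi-likelihood test of siSF3B6 against siNC without a replicate block, and Benjamini-Hochberg adjustment over the 16869 genes that passed, called at 0.05. Standard errors were derived from the log2 fold change and the square root of F. Levels within a gene are TMM-scaled CPM, and levels between genes are FPKM. Alternatives used DESeq2 1.42.0, limma 3.58.1 (voom, or log2(FPKM + 1) and log2(FPKM + 0.1) with a minimum mean of 0.5 FPKM or none), other scaling and filters, a correction for GC and length (an offset, lowess, span 0.3, from the longest GENCODE 29 transcript, known for 16675 genes tested), and subsets of libraries. The test was tested on simulated data before use. GENCODE release 29, possibly not the annotation used for counting, gave positions and shared 50-base words, and RefSeq (GRCh38.p14) gave promoters. In 47 of the 50 promoter windows the bases after the start matched a transcript of the gene as written, and in 0 in the reverse direction.

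The 46 members, their 9 classes and the other lists were chosen with earlier results of these data known. All members are named. Values in every library were given by rule for members called with an absolute log2 fold change of at least 1, and in each class for the largest absolute change and for the one nearest to 0 with a mean of at least 5 CPM. IFIT1, IFIT3, IRF7, IRF3, STAT3, OASL and SOCS1 were added after their values were seen. Of each pathway list up to 3 called genes of largest change were named. Some results of the list of other STAT and IRF factors are not reported here.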

Additional observations from a re-analysis of the deposited data

How the results depend on the processing

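Of the 34 higher calls, 18 kept their direction and call under every one of the 20 alternatives that could be fitted, among them all 10 strongly raised members (IRF9, CMPK2 and MX2 fell below the FPKM filter in 2). The count of higher members was 28 to 35 when single libraries were left out, 38 after the GC and length correction and 35 with the replicate block, but 22 on unfiltered log2(FPKM + 1) and 20 against siNC replicate 3 alone, whose spread is taken from the siSF3B6 group. The count of lower members, 3, was 5 with library size only, 5 with the replicate block, 5 with only libraries 1 and 2 of each group, and 1 against siNC replicate 3 alone. The counts over all genes moved too: 3509 higher became 2459 with library size only, 1561 on unfiltered log2(FPKM + 1), 4182 after the GC and length correction and 1178 against siNC replicate 3 alone, and 3380 lower became 4558 with library size only, 4005 with the replicate block, 4600 with only libraries 1 and 2, and 1293 against siNC replicate 3 alone. The median log2 fold change of 0.48 was 0.32 on filtered and 0.31 on unfiltered log2(FPKM + 1), and 0.38 to 0.49 otherwise. Library size only shifted the all-gene median to -0.10, and LY6E (-0.01) was the one member to change sign under it. Other sign changes concerned members that did not pass the threshold: GBP3 (-0.06), ISG15 (0.02) and PARP10 (0.32) after the GC and length correction, PARP10 (0.31) against siNC replicate 3 alone, and, with 1 library left out, LY6E (-0.03 to 0.22), GBP3 (-0.03 to 0.18) and PARP10 (-0.18 to 0.06). The causes were not tested. Same-numbered libraries of the 2 groups deviated together with correlations of 0.0331, 0.102 and 0.123 for numbers 1, 2 and 3. Pairs with unlike numbers had -0.108 to 0.0261, so each library correlated best with its own number. The titles give only a number, and whether same-numbered libraries share a batch was not tested.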
